A study of Mus musculus with 15 samples.

Results

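Transcripts of adult mouse germ cells lacking a functional Akt1s1 gene (KO) were compared with those of wild-type (WT) cells. The KO group holds 3 libraries (numbered 10, 11 and 12 in their titles), from adults of 2 to 3 months with the genotype Pou5f1-Gfp;Akt1s1 null. The WT group holds 2 libraries (7 and 9), from adults of the same age with the genotype Pou5f1-Gfp;WT. Of 27128 gene names in the files, 16423 reached a signal of 1 or more in 2 or more of these 5 libraries and entered the comparison, against 17746 when all 15 libraries of the series are considered. The other 10 libraries are KO and WT cells aged 3 or 7 days post partum (dpp), which served here to estimate the spread and to look up the adult genes at younger ages. All donors carried the GFP transgene, whose Pou5f1 (Oct4) promoter marks early germ cells, and the cells were sorted for green fluorescence after testes were digested with collagenase, DNase I and trypsin. The labels do not give which part of Akt1s1 is deleted, nor whether each library is a different animal. The p-values therefore measure the spread between libraries, which may be technical.

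Akt1s1 encodes PRAS40, a protein that binds raptor in the mTORC1 kinase complex and restrains the complex until AKT or mTORC1 itself phosphorylates it. mTORC1 promotes protein, lipid and nucleotide synthesis and holds back autophagy. In the testis, its activity is known to go with the passage of spermatogonia from the undifferentiated, stem-cell-containing pool to differentiating cells that express Kit and Stra8. Differentiating cells then enter meiosis and later become round and elongating spermatids, which express the protamine genes.

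Signal is the deposited unit. Its values have the form of TPM (transcript abundance scaled to length and library total) multiplied by 1 factor for each library. The read depth is unknown, and no counting error can be given. Adult totals lay between 896543 and 917815, and 15283 to 16312 genes per adult library had a signal of at least 1. Differences are given as KO minus WT on the log2(signal + 1) scale with the standard error (SE), a scale on which changes at low signal appear smaller than they are. For each gene the SE rests on 1 spread shared by all 15 libraries. It can understate the spread among adult libraries for genes with little signal at the younger ages. A gene passed where the Benjamini-Hochberg adjusted p of limma was under 0.05.

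The 5 adult libraries did not fall into 2 clearly separate genotype groups. On the first principal component, with 61.1% of the variance, KO 10, 11 and 12 lay at -13.5, 46.5 and 26.8, against -43.7 and -16.1 for WT 7 and 9. Both WT libraries thus lay below all KO libraries, but KO 10 lay beside WT 9 on this component. On the second component, with 16.6%, KO 10 lay at -27.8 and WT 9 at 15.3. These 2 libraries correlated across genes with r = 0.983, whereas the lowest pair was KO 11 with WT 7 (r = 0.951). Within genotypes, r was 0.985 for KO 11 with KO 12, 0.984 for the WT pair, and 0.969 and 0.979 for KO 10 with KO 11 and KO 12. Genes are not independent replicates, so these are descriptions of the libraries.

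Markers of cells other than spermatogonia also varied between libraries of 1 genotype. The summed signal of 22 leukocyte markers was 651, 89.4 and 263 in KO 10, 11 and 12, against 1845 and 624 in WT 7 and 9. The sum of the 17 Leydig cell markers in the files was 3151, 256.1 and 1445 in KO libraries, against 5733 and 4065 in WT libraries. The hormone gene Insl3 made up most of this sum in every library except KO 11. For 36 genes of round and elongating spermatids the sum was 6809.8, 3293 and 3288 in KO libraries, against 14671 and 6864 in WT libraries. WT 7 was highest in all 3 lists, KO 11 was lowest in those of leukocytes and Leydig cells, and KO 11 and KO 12 were alike for spermatids. The leukocyte and spermatid sums of KO 10 were close to those of WT 9. In bulk RNA fewer cells of a type and less RNA per cell cannot be told apart.

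**Figure D1:**
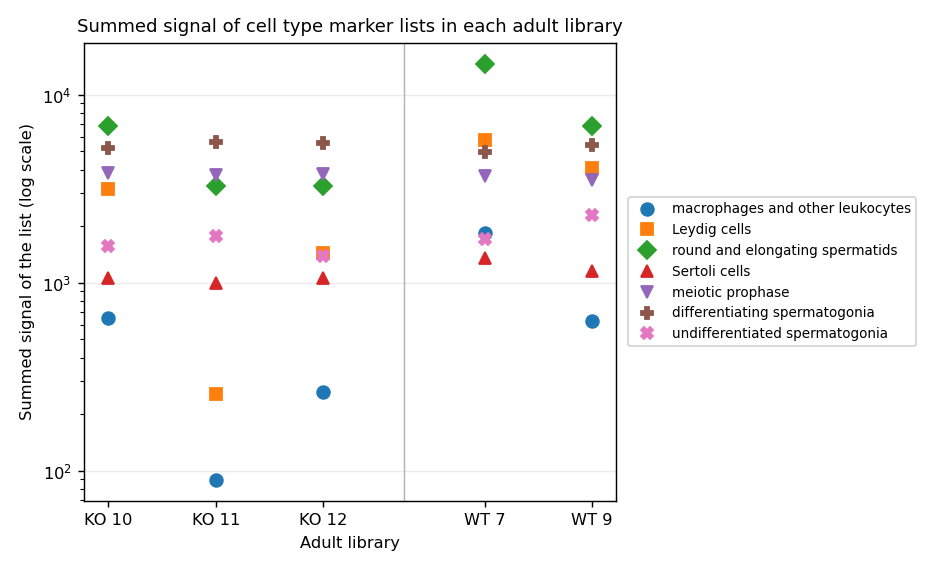
Summed signal (log scale) of the genes of 7 marker lists in each adult library, KO libraries left of the line and WT libraries right of it. Leukocyte, Leydig cell and spermatid sums spread widely, with WT 7 highest, while sums for meiotic prophase (3758 to 3846 in KO, 3539 and 3703 in WT) and differentiating spermatogonia (5200.2 to 5638 in KO, 4939 and 5396 in WT) were close to level.

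Markers of spermatogonia were present in all 5 libraries, as the label states. Pou5f1 itself had a signal of 213, 271 and 139 in KO libraries, against 250.2 and 433 in WT libraries. Its log2 difference was -0.72 ± 0.38 (adjusted p = 0.465) and the groups overlapped. Kit, the receptor that marks differentiating spermatogonia, had 176, 185 and 186 in KO libraries, against 176 and 168 in WT libraries. Stra8, which retinoic acid induces before meiosis, had 591, 627 and 597 in KO libraries, against 616 and 658 in WT libraries. Neither Kit nor Stra8 passed. Transcripts of later germ cells and of Leydig cells were present too, and the spermatid list had a larger summed signal than the list of undifferentiated spermatogonia in every adult library.

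Akt1s1 (chromosome 7, mm10 44849224 to 44855421, plus strand) was lower in adult KO cells but far from absent. It had a signal of 43.1, 45.2 and 47.4 in KO libraries, against 67.9 and 67.1 in WT libraries. All KO libraries lay below both WT libraries, and the log2 difference was -0.57 ± 0.10 (adjusted p = 0.0380). The adjusted p was 0.0225 without KO 10, 0.134 without KO 11, 0.0908 without KO 12, 0.425 without WT 7 and 0.0688 without WT 9. As the position of the deletion is unknown, the transcript level does not check the allele.

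In adults 61 of 16423 genes (0.371%) passed, 25 higher and 36 lower in KO (0.152% and 0.219%). Of these, 13 rose and 21 fell by at least 2-fold, and 16 are provisional gene models, 6 higher and 10 lower. At an unadjusted p under 0.05 there were 2066 genes (12.6%), of which 1630 were lower (9.93%) and 436 higher (2.65%). The KO and WT libraries did not overlap for any of the 61 genes. Among all tested genes, 16.1% lay above WT in every KO library and 19.5% below. The count depends on single libraries. It was 954 without KO 10 (68 higher, 886 lower) and 190 without WT 9 (23 and 167). It was 17 without WT 7 (10 and 7), 29 without KO 11 (17 and 12) and 28 without KO 12 (17 and 11). With only the 5 adult libraries in the fit, 19 genes passed (14 higher and 5 lower). All 61 kept their direction without any of the 5 libraries, and 17 passed in each of these fits. The 11 of them that are not provisional models are Ptk2b, Rcbtb2, Entpd4, Zfp868, Mrpl39 and Morf4l1b, which were higher, and Eno1b, Tktl2, Ktn1, Rex2 and Defb46, which were lower.

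**Figure D2:**
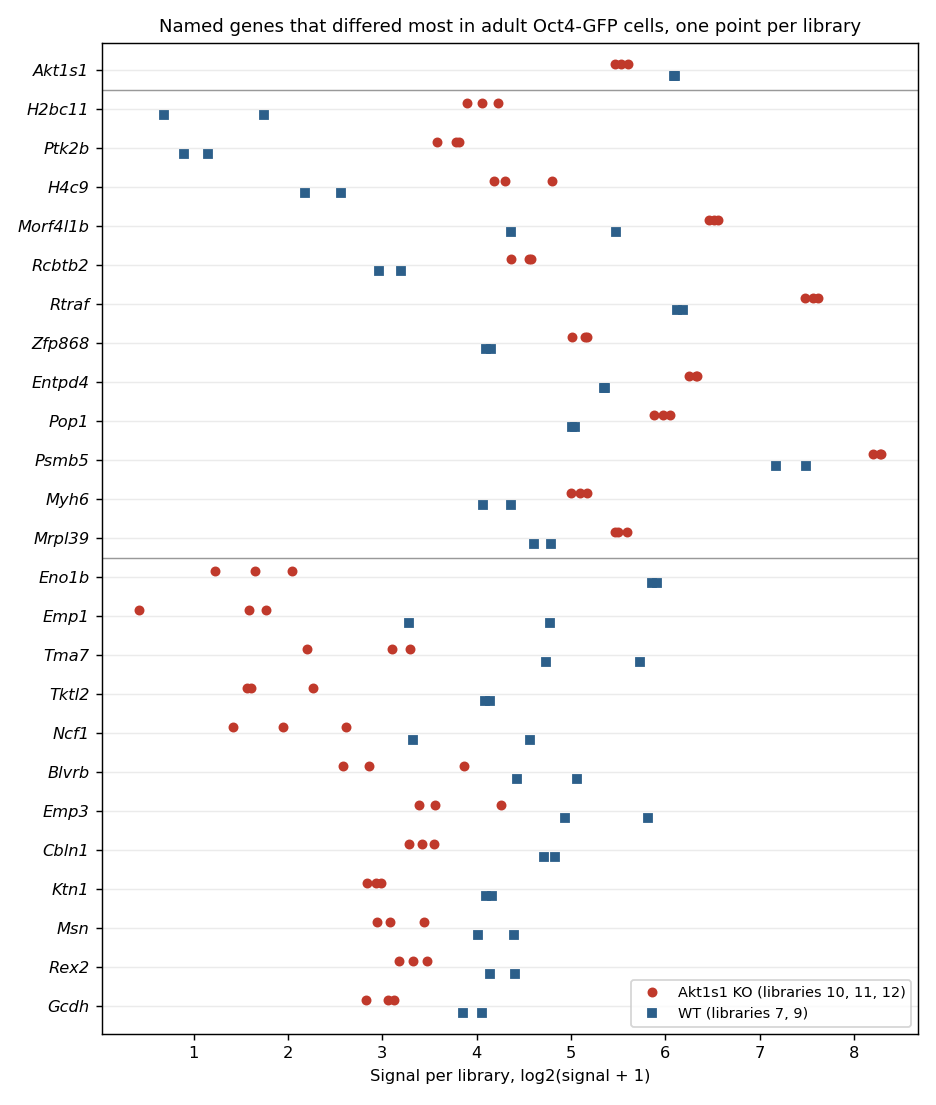
Signal per library, as log2(signal + 1), of Akt1s1 (top), the 12 genes with the largest rise and the 12 with the largest fall in adult KO cells among those that passed with a mean signal of at least 5, leaving out provisional gene models. Each circle is a KO library and each square a WT library; Entpd4 and Zfp868 have tight groups, while Emp1, Tma7 and Ncf1 differ between libraries of the same genotype.

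The largest rise of a named gene outside the histones was that of Ptk2b, which encodes PYK2, a cytoplasmic tyrosine kinase related to focal adhesion kinase. It lies on chromosome 14 (mm10 66153257 to 66281100, minus strand). Its signal was 13.0, 12.7 and 11.0 in KO libraries, against 1.23 and 0.867 in WT libraries, so that it was near the limit of 1 in WT cells. The log2 difference was 2.69 ± 0.22 (adjusted p = 6.77e-05), and the adjusted p without single libraries was at most 0.00263.

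Further genes that rose on chromosome 14 had levels that set the groups clearly apart. Rtraf (19811402 to 19823823), which encodes an RNA-binding component of the tRNA ligase complex, had 177, 196 and 188 in KO libraries, against 68.7 and 71.7 in WT libraries. Rcbtb2 (73138745 to 73184055), named for its RCC1 repeats and BTB domain, had 22.5, 19.6 and 22.9 in KO libraries, against 6.80 and 8.14 in WT libraries. Entpd4 (69337151 to 69366742), a nucleotidase of Golgi and lysosomes, had 79.4, 75.3 and 79.9 in KO libraries, against 39.8 and 40.0 in WT libraries. These levels correspond to log2 differences of 1.40 ± 0.20, 1.42 ± 0.17 and 0.95 ± 0.10 (adjusted p = 0.00695, 0.00132 and 0.000608). Psmb5, the proteasome subunit with chymotrypsin-like activity, had 293, 312 and 308 in KO libraries, against 144 and 178 in WT libraries (0.92 ± 0.13, adjusted p = 0.00785). Myh6, a myosin heavy chain gene known from heart muscle, had 35.0, 33.1 and 30.9 in KO libraries, against 15.7 and 19.6 in WT libraries (0.87 ± 0.16, adjusted p = 0.0389). Without WT 7, Rtraf, Psmb5 and Myh6 no longer passed (adjusted p = 0.131, 0.230 and 0.511). Myh6 did not pass without KO 11 or KO 12 either (0.140 and 0.103).

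Genes on other chromosomes rose by similar amounts. Zfp868, a zinc finger gene on chromosome 8 (69610654 to 69625557), had 31.3, 34.5 and 35.1 in KO libraries, against 16.1 and 16.8 in WT libraries (0.98 ± 0.11, adjusted p = 0.000695). Pop1 (chromosome 15), which encodes a protein subunit of the RNA-processing enzymes RNase P and RNase MRP, had 58.1, 61.8 and 65.2 in KO libraries, against 31.9 and 31.1 in WT libraries (0.95 ± 0.12, adjusted p = 0.00352). Without WT 7 its adjusted p was 0.0591. Both genes had nearly equal values within a genotype. Mrpl39 (chromosome 16), a protein of the mitochondrial ribosome, had 43.1, 47.1 and 44.1 in KO libraries, against 26.7 and 23.4 in WT libraries (0.82 ± 0.11, adjusted p = 0.00407). Morf4l1b (chromosome 19) had 90.4, 93.0 and 87.0 in KO libraries, against 43.5 and 19.7 in WT libraries (1.59 ± 0.24, adjusted p = 0.0114). The WT libraries differed by more than 2-fold for Morf4l1b, and the KO libraries were close to each other.

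Both replication-dependent histone genes that passed lie close together on chromosome 13, with H2ac11 between them. H4c9 (22040960 to 22041362), for histone H4, had 17.1, 18.8 and 26.8 in KO libraries, against 3.54 and 4.89 in WT libraries (2.06 ± 0.34, adjusted p = 0.0196). H2bc11 (22043198 to 22043658), for histone H2B, had 17.7, 13.9 and 15.7 in KO libraries, against 2.36 and 0.612 in WT libraries (2.84 ± 0.55, adjusted p = 0.0496). They were 2 of 40 histone genes tested, and the median of the list was -0.16, but 0.03 without KO 11 and 0.15 without WT 7. H2ac11 had 15.1, 16.4 and 20.6 in KO libraries, against 7.10 and 3.70 in WT libraries, and did not pass (1.56 ± 0.38, adjusted p = 0.117). H4c2, with 9.60, 6.26 and 8.49 in KO libraries against 0 (as listed) and 0.539 in WT libraries, did not pass (2.86 ± 0.66, adjusted p = 0.0987). Without WT 7, H4c9 and H2bc11 had adjusted p = 0.342 and 0.176. H4c9 also did not pass without KO 11 or KO 12 (0.0587 and 0.0908). H2bc11 did not pass without KO 11, KO 12 or WT 9 either (0.134, 0.174 and 0.136).

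Histone copies are so alike that reads can be split between them. The first 60 coding bases of 3 H4 genes on chromosome 13 (GRCm38, GENCODE M21 annotation) are alike but not identical. From H4c9, H4c2 differs at 5 of these bases and H4c3 at 9, so this stretch can tell them apart. Capitals mark bases that differ from H4c9.
H4c9: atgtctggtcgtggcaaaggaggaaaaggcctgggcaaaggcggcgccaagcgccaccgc
H4c2: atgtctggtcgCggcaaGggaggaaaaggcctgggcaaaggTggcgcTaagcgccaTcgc
H4c3: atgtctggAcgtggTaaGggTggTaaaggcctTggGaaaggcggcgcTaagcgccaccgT
Over all 309 coding bases, H4c2 was 95.8% and H4c3 93.9% identical to H4c9, with 13 and 19 differing bases. The overlap of sequence was also measured as the share of 31-base words. Of those in the transcripts of H4c9, 35.3% also occur in transcripts of other genes. For H2bc11 the share was 67.2%, for H4c2 59.7% and for H2ac11 79.8%. The levels of single histone genes are uncertain for this reason.

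The same measure was high for some of the other genes that passed. At least 50% of the words were shared for 6 of the 45 genes that passed and have annotated transcripts (13.3%), against 424 of 14168 among all tested genes (2.99%). These are Entpd4 (all of its words), Rex2 (94.3%), Eno1b (89.0%), Rhox4c (79.4%), Psmb5 (71.7%) and H2bc11. Their signals are uncertain, because reads of near-identical copies cannot be assigned to a single gene. Ptk2b, Zfp868, Ktn1 and Tktl2 were not among them. For Morf4l1b no such share was obtained.

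Provisional gene models aside, Eno1b changed most among genes that fell. It is a copy of the glycolytic enolase gene Eno1 and lies on chromosome 18 (48045335 to 48048379, plus strand). Its signal was 3.11, 2.15 and 1.34 in KO libraries, against 56.8 and 59.2 in WT libraries (-4.24 ± 0.30, adjusted p = 1.24e-05). Tktl2, a transketolase-like gene on chromosome 8 (66511740 to 66519199), had 3.80, 2.06 and 1.96 in KO libraries, against 16.1 and 16.7 in WT libraries (-2.30 ± 0.21, adjusted p = 0.000124). Neither gene overlapped between genotypes, and both passed without any single library. Ktn1 (chromosome 14, 47648274 to 47736564), for the kinesin-binding membrane protein kinectin, had 6.94, 6.65 and 6.14 in KO libraries, against 16.1 and 16.9 in WT libraries (-1.21 ± 0.12, adjusted p = 0.000285). Rex2 (chromosome 4) had 9.01, 10.1 and 8.07 in KO libraries, against 16.7 and 20.2 in WT libraries (-0.95 ± 0.13, adjusted p = 0.00413).

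On chromosome 8, 8 genes were lower. Gcdh (84886387 to 84893921), a dehydrogenase of lysine and tryptophan breakdown, had 7.36, 6.08 and 7.71 in KO libraries, against 15.6 and 13.4 in WT libraries (-0.95 ± 0.16, adjusted p = 0.0200). Ndufb7 (83566758 to 83571623), a subunit of respiratory complex I, had 232, 238 and 217 in KO libraries, against 333 and 341 in WT libraries (-0.56 ± 0.08, adjusted p = 0.0114). Slc25a4 (46207168 to 46211062), an ADP/ATP carrier of the inner mitochondrial membrane, had 19.9, 18.2 and 17.1 in KO libraries, against 35.9 and 31.025 in WT libraries (-0.83 ± 0.13, adjusted p = 0.0133). The libraries of each genotype lay close together for all 3 genes. Cbln1 (87468853 to 87472592), a secreted protein known as a synapse organiser, had 10.7, 9.72 and 8.70 in KO libraries, against 25.3 and 27.4 in WT libraries (-1.36 ± 0.23, adjusted p = 0.0239). The defensin gene Defb46 (19239916 to 19242143) was listed at 0 in all 3 KO libraries, against 9.33 and 8.40 in WT libraries. A listed 0 may be an estimate that failed, and no fold is given. Without WT 7, Gcdh, Ndufb7, Slc25a4 and Cbln1 had adjusted p = 0.381, 0.154, 0.276 and 0.239. They did not pass without KO 12 either (0.0510, 0.0717, 0.0717 and 0.103). Gcdh, Slc25a4 and Cbln1 were also lost without KO 11 (0.106, 0.0545 and 0.0878), and Cbln1 without WT 9 (0.0619).

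A further set of lower genes varied strongly within each genotype. Ncf1 (chromosome 5), a subunit of the phagocyte NADPH oxidase, had 5.14, 1.66 and 2.86 in KO libraries, against 22.7 and 9.04 in WT libraries. Emp1 (chromosome 6), a tetraspan membrane protein, had 2.40, 0.340 and 2.01 in KO libraries, against 26.3 and 8.74 in WT libraries. Emp3 (chromosome 7), of the same family, had 18.1, 9.44 and 10.8 in KO libraries, against 55.3 and 29.7 in WT libraries. In each of them KO 11 was lowest and WT 7 highest, as in the summed leukocyte markers. Blvrb, biliverdin reductase B, had 13.6, 5.01 and 6.24 in KO libraries, against 32.4 and 20.5 in WT libraries. Msn, which links the membrane to actin as moesin, had 9.83, 7.45 and 6.70 in KO libraries, against 20.1 and 15.1 in WT libraries. Tma7, a small gene named for translation machinery, had 8.80, 7.59 and 3.61 in KO libraries, against 52.1 and 25.6 in WT libraries. The log2 differences of Ncf1, Emp1 and Emp3 were -1.95 ± 0.36, -2.77 ± 0.50 and -1.64 ± 0.29, and those of Blvrb, Msn and Tma7 were -1.64 ± 0.32, -1.05 ± 0.20 and -2.36 ± 0.38. These SE draw on the younger libraries too, where Ncf1 had 1.215 to 3.005 and Emp1 0.504 to 5.555, and can understate the adult spread. The adjusted p ran from 0.0194 for Tma7 to 0.0496 for Blvrb. Without WT 7 all 6 lost their call, with adjusted p from 0.371 for Tma7 to 0.565 for Blvrb. Without KO 12 the adjusted p ran from 0.0717 for Tma7 to 0.212 for Blvrb. Without KO 11, Tma7 passed (0.0442) and the other 5 did not (0.123 for Emp1 to 0.173 for Blvrb). The part of the leukocyte markers in these differences was not tested.

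The very largest differences stood in provisional models that have no described function here, and they are given although they lie outside the rule for named genes. LOC100041000 had a signal of 1163, 1509 and 1326 in KO libraries, against 2.60 and 6.95 in WT libraries. LOC675278 had 6.10, 5.69 and 2.94 in KO libraries, against 894 and 961 in WT libraries. Both passed (7.95 ± 0.27 and -7.34 ± 0.63, adjusted p = 2.89e-09 and 7.92e-05). LOC100039601 had 251, 430.0 and 470.2 in KO libraries, against 0 (as listed) and 3.00 in WT libraries. LOC100039220 had 27.6, 48.2 and 42.2 in KO libraries and was listed at 0 in both WT libraries. These names have no position in the annotation used here.

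The genes that passed were unevenly placed along the genome, which was noticed after their values were seen. On chromosome 14, 13 of 489 tested genes passed (2.66%), 10 higher and 3 lower in KO. On chromosome 8, 10 of 757 passed (1.32%), 2 higher and 8 lower. Together they gave 23 of 1246 genes (1.85%), against 23 of 12997 on all other chromosomes (0.177%) and 15 of 2180 without a position (0.688%). Akt1s1 itself is on chromosome 7, where 4 of 1139 genes passed (0.351%). No test was made of this distribution, since it was chosen for its pattern.

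**Figure D3:**
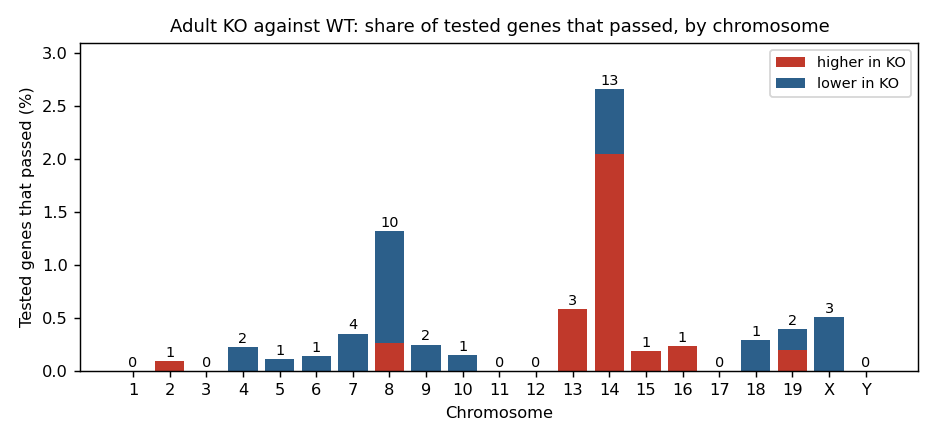
Share of tested genes on each chromosome that passed in adult KO against WT cells, split into higher and lower, with the number that passed above each bar. Chromosome 14 (13 genes, 2.66%) and chromosome 8 (10 genes, 1.32%) stand above the others, which have at most 4 each.

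Besides those described, the genes of chromosome 14 that passed were Pdhb, Osgep, Tox4 and Haus4, which were higher, and Arhgef3 and Rb1, which were lower. Pdhb, the beta subunit of pyruvate dehydrogenase, had 206, 214 and 223 in KO libraries, against 134 and 133 in WT libraries (0.68 ± 0.10). Osgep, a tRNA-modifying enzyme, had 98.3, 111 and 109 in KO libraries, against 61.2 and 62.2 in WT libraries (0.77 ± 0.12). Haus4, of the augmin complex of the spindle, had 192, 198 and 189 in KO libraries, against 115 and 126 in WT libraries (0.68 ± 0.12). Every KO library lay above both WT libraries for all 3 genes. Rb1 (73192858 to 73325951), the retinoblastoma cell cycle repressor, is the next tested gene to Rcbtb2 along the chromosome by its position, and it went the other way. Its signal was 42.0, 42.6 and 44.8 in KO libraries, against 58.4 and 66.0 in WT libraries (-0.52 ± 0.09). The adjusted p was 0.00660 for Pdhb, 0.0175 for Osgep, 0.0345 for Haus4 and 0.0291 for Rb1. Without WT 7 they were 0.120, 0.239, 0.464 and 0.122. Without KO 11 Pdhb passed (0.0320), while Osgep, Haus4 and Rb1 did not (0.0819, 0.134 and 0.123). Without KO 12 Pdhb passed (0.0377), and the other 3 did not (0.0807, 0.105 and 0.0807). Rb1 was also lost without WT 9 (0.0968).

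On chromosome 8 the remaining genes that passed were Asf1b, which was higher, and Asah1 and Mri1, which were lower. Asf1b (83955694 to 83970195), a chaperone of histones H3 and H4, had 163, 194 and 179 in KO libraries, against 126 and 125 in WT libraries (0.50 ± 0.10, adjusted p = 0.0494). Mri1 (84250576 to 84257324), an enzyme of methionine salvage, had 10.8, 11.0 and 12.8 in KO libraries, against 20.1 and 22.4 in WT libraries (-0.83 ± 0.15, adjusted p = 0.0389). Ndufb7, Asf1b, Mri1 and Gcdh lie in this order within 83566758 to 84893921, and their directions are mixed. They are not all neighbours. Ier2 (84661331 to 84662852), which was tested and did not pass (adjusted p = 0.165), lies between Mri1 and Gcdh. Asah1, the acid ceramidase of lysosomes, had 43.4, 39.6 and 36.2 in KO libraries, against 70.6 and 55.0 in WT libraries (-0.64 ± 0.11, adjusted p = 0.0289). Without WT 7 the adjusted p was 0.459, 0.258 and 0.464 for Asf1b, Mri1 and Asah1. None of the 3 passed without KO 11 (0.185, 0.146 and 0.106) or without KO 12 (0.176, 0.0791 and 0.124), and without WT 9 Asf1b and Mri1 did not (0.0861 and 0.0972).

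The adult genes were then looked up in the KO and WT libraries of the younger ages, which share no library with the adult group means. The spread of each gene was, however, estimated once from all 15 libraries and used at every age. Passing at a younger age is therefore not independent of passing in adults. Of the 61 genes, 43 had the same sign at 7 dpp and 20 of these passed there, where 0.201% of all tested genes passed. At 3 dpp 48 had the same sign and 36 of these passed, where 11.1% of all tested genes passed. None of the 61 passed in the opposite direction at either age. Among all 16423 tested genes 0 did so at 7 dpp and 711 at 3 dpp, so the 7 dpp value does not set the 61 apart. The sign was shared at both ages by 38 (62.3%), against 21.1% of all tested genes, and 20 passed at all 3 ages. For genes higher in adult KO cells, 23 of 25 shared the sign at both ages, against 15 of 36 lower genes (41.7%). On chromosomes 8 and 14 it was 19 of 23 (82.6%), against 11 of 23 (47.8%) on other chromosomes. Of the latter, all 7 higher genes (100%) but only 4 of the 16 lower genes (25%) shared the sign.

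**Figure D4:**
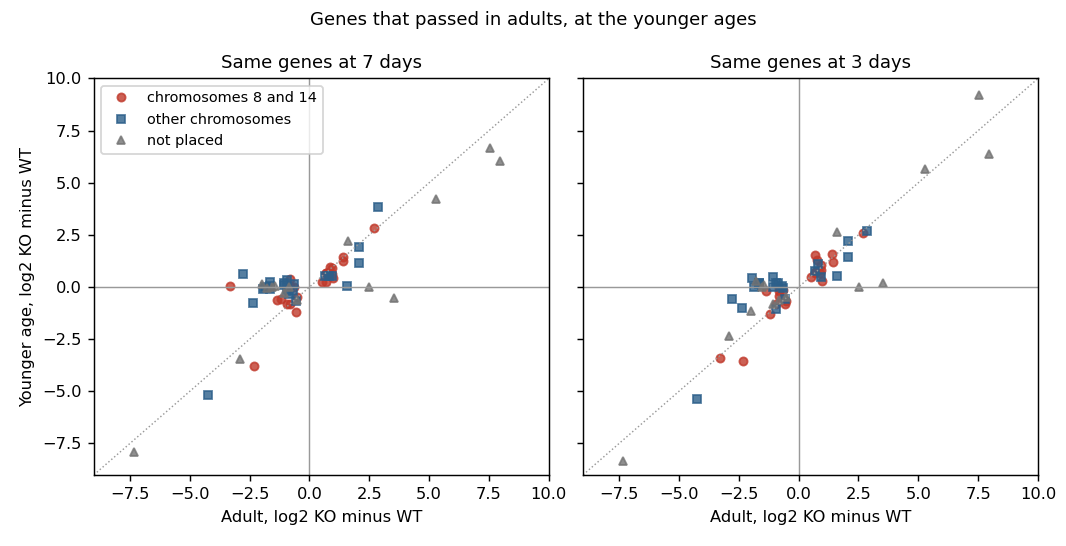
Log2 difference (KO minus WT) in adults (x axis) against that at 7 dpp (left) and 3 dpp (right) for the 61 genes that passed in adults, by chromosome; the dotted line marks equal differences. Genes on chromosomes 8 and 14 lie mostly near the line, while many lower genes on other chromosomes lie near 0 at the younger ages.

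Ptk2b and Rcbtb2 were close to their adult differences at both younger ages. Ptk2b differed by 2.83 ± 0.22 at 7 dpp and 2.61 ± 0.22 at 3 dpp, and Rcbtb2 by 1.43 ± 0.17 and 1.20 ± 0.17. Eno1b and Tktl2 were lower at each age. The KO signal of Eno1b was 0.140 to 0.446 at 7 dpp and 0.154 and 0.471 at 3 dpp, below its adult KO values. By contrast Ncf1 and Emp3 differed by -0.10 ± 0.36 and 0.04 ± 0.29 at 7 dpp and by 0.42 ± 0.36 and 0.18 ± 0.29 at 3 dpp, and none of these values passed. Ncf1 had a signal of at most 3.01 in every younger library.

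The adult genotype effect was also tested directly against that at each younger age. Against 7 dpp, the adult genotype effect differed in 0 genes by limma (2126, or 12.9%, at an unadjusted p under 0.05). Slc25a4, lower in adult KO cells, had 64.3, 71.7 and 58.1 in KO libraries at 7 dpp, against 49.0 and 50.5 in WT libraries. Its effects differed by -1.19 (adjusted p = 0.181), which did not pass. Zfp703 had 6.07, 6.86 and 5.28 in adult KO libraries, against 10.1 and 9.48 in adult WT libraries, and its effects differed by -1.22 with the same adjusted p. Defb46, listed at 0 in adult KO libraries, had 30.7, 8.44 and 9.95 in KO libraries at 7 dpp, against 13.5 in both WT libraries of that age, and its difference did not pass either (adjusted p = 0.181). Sgk1, Tns3 and B4galt3 had differences of -0.84, -0.76 and -0.92, and Oip5, Eif2s3y and Gmds of 0.68, 0.57 and 0.56. None of them passed.

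Against 3 dpp, the adult genotype effect differed in 184 genes (1.12%), 140 with a higher (0.852%) and 44 with a lower value (0.268%) in adults. With all libraries rescaled to the same total, the median of this difference over all genes was 0.14 in place of -0.02, and 1026 genes had a higher and 74 a lower value. The highest was Amd2, a duplicate of Amd1, which makes a precursor of polyamines; 90.9% of its 31-base words are shared. It had 21.8, 15.5 and 34.1 in adult KO libraries, against 17.4 and 18.2 in adult WT libraries, and was listed at 0 in both KO libraries at 3 dpp. Meioc, which is needed for meiotic prophase to extend, had 60.1, 76.1 and 86.5 in adult KO libraries, against 61.3 and 43.0 in adult WT libraries, without passing there. Its effects at the 2 ages differed by 1.64 ± 0.31 (adjusted p = 0.0369). The kinetochore gene Knl1 had 32.7, 35.6 and 35.6 in adult KO libraries, against 30.8 and 24.98 in adult WT libraries, and its effects differed by 1.40 ± 0.21 (adjusted p = 0.0130). Both genes were lower in KO at 3 dpp, by 1.13 ± 0.22 and 1.09 ± 0.15 on the log2 scale. The count of 184 was 24 without WT 9, 27 without KO 11, 14 without KO 12, 12 without WT 7 and 436 without KO 10.

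Genes around PRAS40 showed little difference in adults. Of 44 subunits and regulators of mTORC1 and mTORC2, 0 were higher and 1, Akt1s1 itself, was lower, and the median log2 difference was -0.003, against -0.025 for all genes tested. With other scalings the median of the list was 0.001 to 0.07, and without single libraries -0.018 to 0.002, so that its sign is not settled. Mtor, the kinase, had 112, 104 and 106 in KO libraries, against 114 and 117 in WT libraries (-0.11 ± 0.09). Rptor, for raptor, had 41.7, 41.4 and 36.8 in KO libraries, against 41.6 and 44.4 in WT libraries (-0.10 ± 0.11). Neither passed (adjusted p = 0.692 and 0.776). Sesn1, a leucine-responsive inhibitor of mTORC1 signalling and a p53 target, had 14.8, 14.5 and 12.1 in KO libraries, against 20.3 and 19.5 in WT libraries (-0.50 ± 0.11, adjusted p = 0.0802). Ddit4, an inhibitor induced by stress, had 41.6, 47.6 and 30.7 in KO libraries, against 56.2 and 89.8 in WT libraries (-0.84 ± 0.29, adjusted p = 0.226). Tbc1d7, the third subunit of the TSC complex, differed by 0.26 ± 0.10 (adjusted p = 0.243). These 3 were named for their small p. All 3 had groups that did not overlap and none passed. Of the 44 genes, 10 lay above and 9 below WT in every KO library, against 16.1% and 19.5% of all tested genes.

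Upstream and downstream branches gave no gene that passed. Of 24 genes of the PI3K, AKT and PDK1 branch 0 passed, with a median of -0.07 (-0.04 without KO 11). Pik3cd had 23.8, 21.6 and 17.1 in KO libraries, against 28.0 and 39.0 in WT libraries (-0.66 ± 0.23, adjusted p = 0.214). Of 25 genes of S6 kinase signalling and cap-dependent translation 0 passed, with a median of 0.03 (0.007 without KO 11 and 0.06 without KO 10). Eif4ebp3, a repressor of cap-dependent translation, had 99.8, 97.4 and 97.2 in KO libraries, against 83.5 and 74.7 in WT libraries (0.31 ± 0.09, adjusted p = 0.164). Of its 31-base words 66.4% are shared. Pik3cd and Eif4ebp3, named for their small p, had groups that did not overlap. Above WT in every KO library lay 6 of the 24 and 6 of the 25 genes, against 16.1% of all tested genes. Below WT lay 11 and 4, against 19.5%.

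Metabolic and biosynthetic lists held 1 gene that passed. Of 77 cytosolic ribosomal protein genes 0 passed, and 63 lay above the WT mean, against 7447 of all 16423 tested genes. Their median was 0.08, but -0.011 without WT 7 and 0.16 without WT 9. Of 77 oxidative phosphorylation genes only Ndufb7 passed, and it was lower, while 60 lay above the WT mean and the median was 0.09 (0.05 without WT 7). Atp5o, of ATP synthase, had 605, 578 and 636 in KO libraries, against 443 and 483 in WT libraries (0.39 ± 0.11, adjusted p = 0.161). None of the 29 genes of glycolysis and the pentose phosphate path, the 35 of sterol and fatty acid synthesis, the 26 of the amino acid stress response, the 40 of ribosome biogenesis or the 50 of lysosome and autophagy passed. Their medians were -0.16, -0.08, -0.09, 0.04 and -0.03. The median of ribosome biogenesis was -0.03 without WT 7 and 0.10 without WT 9. The medians of the other 4 stayed below 0 without any single library, at -0.22 to -0.08, -0.10 to -0.03, -0.12 to -0.06 and -0.05 to -0.010. Hk1, the hexokinase that starts glycolysis, had 117, 77.8 and 73.0 in KO libraries, against 177 and 124 in WT libraries (-0.76 ± 0.20, adjusted p = 0.122).

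Germ cell stage lists held no gene that passed, but their medians differed in sign. Of 32 genes of undifferentiated spermatogonia, 25 lay below the WT mean, against 8976 of all 16423 tested genes. The median was -0.29, and ran from -0.40 without WT 7 to -0.14 without WT 9. Sall4, a stem cell transcription factor, had 99.997, 103 and 88.3 in KO libraries, against 119 and 149 in WT libraries (-0.45 ± 0.13, adjusted p = 0.164). Dusp6, a phosphatase of the ERK pathway, had 6.48, 5.29 and 4.72 in KO libraries, against 14.5 and 8.52 in WT libraries (-0.91 ± 0.27, adjusted p = 0.161). Foxo1, a nuclear target of AKT, had 75.0, 80.7 and 76.6 in KO libraries, against 90.6 and 101 in WT libraries (-0.30 ± 0.12, adjusted p = 0.296). KO lay below both WT libraries in all 3, as in 12 of the 32 genes, against 19.5% of all tested genes. Lin28a, named by the same rule, overlapped, with 132, 138 and 115 in KO libraries, against 137 and 192 in WT libraries (-0.34 ± 0.13, adjusted p = 0.257). The summed signal of the list was 1569.5, 1764 and 1392 in KO libraries, against 1706 and 2282 in WT libraries, so the sums overlapped. Zbtb16, Gfra1 and Ret, known from undifferentiated spermatogonia, did not pass either. Zbtb16 had 65.2, 66.2 and 55.9 in KO libraries, against 73.6 and 84.9 in WT libraries (-0.34 ± 0.16, adjusted p = 0.411).

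Of 16 genes of differentiating spermatogonia, 13 lay above the WT mean (median 0.11, but 0.06 without KO 12 and 0.17 without KO 10) and 0 passed. Dmrtb1, a transcription factor of the step from mitosis to meiosis, had 279, 288 and 279 in KO libraries, against 216 and 206 in WT libraries (0.42 ± 0.28, adjusted p = 0.609). Ccnd2, a D-type cyclin, went the other way with 36.4, 38.1 and 30.1 in KO libraries, against 55.3 and 65.8 in WT libraries (-0.78 ± 0.19, adjusted p = 0.121). Of 41 meiotic genes 0 passed (median 0.07, but 0.03 without WT 9 and 0.15 without WT 7). Smc1b, a meiotic cohesin, had 182, 195 and 189.8 in KO libraries, against 150.05 and 147 in WT libraries (0.34 ± 0.09, adjusted p = 0.121). Of 42 cell cycle genes, 35 lay above the WT mean (median 0.12), and Rb1 was the only one that passed. The cyclin-dependent kinase inhibitor Cdkn1b had 6.85, 7.76 and 4.30 in KO libraries, against 11.7 and 14.7 in WT libraries (-0.98 ± 0.30, adjusted p = 0.171).

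Spermatid genes were below the WT mean in 34 of 35 cases, with a median of -0.62, and 0 passed. Prm2, a protamine that packs sperm DNA, had 1486, 640.0 and 659 in KO libraries, against 3306 and 1564 in WT libraries (-1.41 ± 0.42, adjusted p = 0.166). KO 10 and WT 9 had nearly the same signal. Spata18 and H1f7 differed by -1.29 ± 0.32 and -1.21 ± 0.31 (adjusted p = 0.121 and 0.123). Both had a signal under 1 in every younger library, so these SE can understate the adult spread. The list median of -0.62 weakened to -0.549 without KO 12, -0.456 without KO 11 and -0.455 without WT 7. It became stronger without KO 10 or WT 9. Without KO 10, 17 of the 35 genes passed as lower and the median was -1.07, in a fit where 5.39% of all genes were lower. Without WT 9, 4 passed, against 1.02% of all genes, and the median was -0.98.

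Somatic lists held no gene that passed. Of 20 leukocyte genes 16 lay below the WT mean, with a median of -1.92 (-1.13 without WT 7). The complement gene C1qa had 59.4, 7.32 and 20.9 in KO libraries, against 225 and 74.5 in WT libraries, and the macrophage gene Cd68 had 31.6, 6.99 and 15.7 in KO libraries, against 145 and 38.3 in WT libraries (-2.22 ± 0.54, adjusted p = 0.117). Without KO 10, 9 of the 20 leukocyte genes passed as lower, in a fit where 5.39% of all tested genes did. Of 15 Leydig cell genes 14 lay below the WT mean (median -1.32, but -0.54 without KO 11). Insl3, a Leydig cell hormone, had 2626, 71.2 and 1096 in KO libraries, against 5079 and 3517 in WT libraries (-2.83 ± 1.62, adjusted p = 0.516). Without KO 10, 3 of the 15 Leydig cell genes passed as lower, against 5.39% of all tested genes. Of 22 Sertoli cell genes 21 lay below the WT mean (median -0.72, but -0.37 without WT 7), and their summed signal was 1065, 998 and 1055 in KO libraries, against 1353 and 1149.9 in WT libraries. Trf, transferrin, had 17.6, 8.85 and 9.25 in KO libraries, against 63.2 and 28.2 in WT libraries (-1.81 ± 0.38, adjusted p = 0.0751). Of the 31-base words of Trf 63.8% are shared. No gene of these 3 lists was at 0 in all adult libraries.

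Peritubular myoid (9 genes, median -0.27), stromal fibroblast (11, -0.07), endothelial (8, -0.29) and erythroid (2, -0.39) lists had low sums and 0 genes that passed. Without WT 7 the myoid median was -0.05 and the erythroid median -0.26. The stromal median was 0.06 without KO 11, -0.25 without KO 10 and 0.08 with quantile normalization. Of 26 immediate early and dissociation stress genes 23 lay below the WT mean, with a median of -0.54 and 0 that passed. Egr1, an immediate early transcription factor, had 63.0, 45.6 and 46.0 in KO libraries, against 96.3 and 75.6 in WT libraries (-0.73 ± 0.20, adjusted p = 0.148). Hspa1a, a heat shock chaperone of whose 31-base words 65.4% are shared, had 16.9, 15.0 and 13.9 in KO libraries, against 28.2 and 27.8 in WT libraries (-0.84 ± 0.23, adjusted p = 0.141). Both lay lower in every KO library than in either WT library, as did 18 of the 26 genes, against 19.5% of all tested genes. Without KO 10, 8 of the 26 genes passed as lower, against 5.39% of all tested genes. In all 27 lists 5 calls were made in adults, where 0.371% of all tested genes passed. In the fit without KO 10, where 954 of all tested genes passed (5.39% as lower), there were 66 list calls, 61 of them lower. Without WT 9 there were 15, without KO 11 there was 1, and without WT 7 or KO 12 there were 0.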

How the data were processed

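RNA was measured in sorted Oct4-GFP germ cells. The submitters' processing notes name kallisto, Trim Galore, DESeq2 and build mm10. Their versions and settings are not given in the sources used here. In the deposited files the signal is not a count: scaled to a library total of 1000000, its values between 0 and 1 were multiples of 0.01 within a tolerance of 0.0006. It was treated as a normalised value. Of 27128 names, 15697 matched a RefSeq symbol (GRCm38.p6, whose positions are printed) and 5026 a unique synonym; 6405 did not match.

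All 15 libraries entered 1 model in limma 3.58.1 (R 4.3.3) on log2(signal + 1), with a mean for each of 6 groups (9 residual degrees of freedom, prior 4.24) and a mean-variance trend. Genes with a signal of 1 or more in 2 or more of the 5 adult libraries were kept. p-values were adjusted by Benjamini-Hochberg over all 16423 genes. On simulated data of the same size, with 200 genes changed, the fit recovered 97% of 4-fold and 88% of 2-fold changes. The simulated noise was independent between genes, with the same spread in all groups, and genes of low signal were not among those changed. Variation shared by many genes of a library was left out. These shares therefore check the fit and do not give the power of the real comparison. Libraries are numbered in runs of 1 age and genotype, so order and group cannot be told apart.

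Members, gene lists (27) and tests were chosen with earlier results of these data known. The rule for named genes took Pou5f1 and Akt1s1, then the 12 highest and the 12 lowest log2 changes of genes that passed with a mean signal of at least 5 and no overlap, leaving out provisional gene models, then up to 4 genes of each list by p, and 6 each way for each age difference. Other genes in the text, among them list members known as markers and the remaining genes on chromosomes 8 and 14, were chosen after their values were seen. Shared sequence was measured as 31-base words in GENCODE M21 transcripts. Alternatives changed the pseudocount, filter, scaling, trend, prior and libraries used.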

Additional observations from a re-analysis of the deposited data

Results flagged for a closer look

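For 12 genes, the difference between KO and WT cells in adults differed from that at 3 dpp in a test of the difference itself (the interaction contrast of limma, adjusted p under 0.05). The sizes are adult minus 3 dpp effects on the log2(signal + 1) scale.

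Of genes with a higher effect in adults, Amd2 had a difference of 5.04, which depends on the pseudocount because it was listed at 0 in both KO libraries at 3 dpp. Lpl, lipoprotein lipase, had 2.51, with 1.86, 1.72 and 2.12 in adult KO libraries, against 3.60 and 1.29 in adult WT libraries, and with 1.40 and 2.38 in KO libraries at 3 dpp, against 15.9 to 19.8 in WT libraries of that age. The growth factor gene Fgf11 had 2.43, Meioc 1.64, the zinc transporter gene Slc39a9 1.57 and Knl1 1.40.

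Of genes with a lower effect in adults, Ncf1 had -2.38. Gsg1, a gene of late germ cells, had -2.37, with 159.5, 70.2 and 77.4 in adult KO libraries, against 323 and 152 in adult WT libraries, and at most 4.18 in every library at 3 dpp. The transcription factor gene Hoxb2 had -2.06, the CDC42 effector gene Cdc42ep3 -1.96, Ndrg2 -1.79 and Dbil5 -1.59. Dbil5 had 188, 101 and 114 in adult KO libraries, against 376 and 209.5 in adult WT libraries, with WT 7 highest as in the summed spermatid genes, whose part in these values was not tested.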

How the results depend on the processing

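All 61 adult genes kept their direction without each library, which their lack of overlap fixed in advance. Among 3 scalings, 2 pseudocounts, 3 filters and a robust prior the count stayed at 48 to 72, quantile normalization aside. There the count was 95 (36 higher, 59 lower). It was 33 without the mean-variance trend (30 of them among the 61) and 19 with the 5 adult libraries alone (all among the 61). Without single libraries it ran from 17 to 954, and the cause was not tested. Calls within the 27 lists were 8 with quantile normalization, 0 without the trend and 0 with adult libraries alone, and ran from 0 to 66 without single libraries. The adult effect differed from that at 7 dpp in 0 genes, but in 1 with a pseudocount of 0.1, in 3 without a filter and in 0 to 6 without single libraries. The difference from 3 dpp was called in 309 genes with a filter at a signal of 5, in 1100 after rescaling to the same total, in 15 without the trend and in 12 to 436 without single libraries. The number of adult genes with the same sign at both younger ages was 22 without the trend and ran from 15 to 221 without single libraries. Of the single-gene values, 2805 kept their side of the threshold, 73 gained and 165 lost the call, and 0 reversed. Fits that leave 1 WT library assume that it varies like the other groups. No paired analysis was possible because KO and WT libraries share no library number. Depth is unknown, so changes of genes near a signal of 1 are the least certain.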

Other observations

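Lists not described above held no gene that passed in adults by limma, where 2066 of all genes had an unadjusted p under 0.05. Of 18 retinoic acid signalling genes, Dhrs3, a retinaldehyde reductase, had a signal of 4.13, 1.59 and 2.49 in KO libraries, against 12.9 and 5.59 in WT libraries (-1.41 ± 0.37, adjusted p = 0.126). Aldh1a1, which makes retinoic acid, had 59.3, 2.09 and 47.1 in KO libraries, against 109 and 90.0 in WT libraries (-2.27 ± 0.96, adjusted p = 0.332). Aldh1a1 was low in KO 11, as Leydig cell markers were. The list median was -0.10 (-0.15 without KO 10). Of 26 genes of the piRNA pathway the median was -0.06 (0.012 without WT 9), and the PIWI gene Piwil4 had 18.8, 14.2 and 13.2 in KO libraries, against 19.1 and 27.9 in WT libraries (-0.57 ± 0.21, adjusted p = 0.245). Of 23 p53 targets the median was 0.08 (0.05 without KO 12), and Phlda3 had 30.7, 38.3 and 37.9 in KO libraries, against 27.9 and 28.2 in WT libraries (0.33 ± 0.12, adjusted p = 0.263).

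The ribosomal protein gene Rpl21 had a signal of 73.6 in KO 10 but 0.330 and 0.359 in KO 11 and KO 12, against 174 and 200.2 in WT libraries (-5.19 ± 1.65, adjusted p = 0.186). KO libraries thus fell into 2 levels for this gene. Nupr1, a stress-induced transcription regulator, had 3.60, 0.312 and 1.46 in KO libraries, against 20.9 and 6.44 in WT libraries (-2.37 ± 0.50, adjusted p = 0.0744), with KO 11 lowest and WT 7 highest.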
